A study of Mus musculus with 3 samples.

Results

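The regions described here are the binding peaks of thyroid hormone receptor alpha (TRα) that no TRβ peak and no peak of the retinoid X receptor (RXR) touched. They were chosen by position alone: a peak of the TRα list on chromosomes 1 to 19 that shared no base with any peak of the TRβ list or the RXR list was called partnerless. Of 6902 autosomal TRα peaks, 3392 met this rule, or 49.1% (95% exact binomial interval 48.0 to 50.3). The other 3510 comprised 1984 with an RXR peak alone, 1261 with peaks of both lists and 265 with a TRβ peak alone. The 3 lists together held 24389 peaks. Because the rule reads the peaks of all 3 lists, these counts are a description and carry no test.

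The study mapped binding in C17.2 cells, a mouse neural progenitor line derived from neonatal cerebellum and immortalised with v-myc. The line C17.2a stably carried TRα with a protein G tag, and C17.2b carried TRβ with the same tag. Chromatin bound by the tagged receptors was captured on IgG beads (ChAP-seq). RXR was captured from C17.2a, which thus also held the tagged TRα, by ChIP-seq: the antibody was a pan-RXR one and the beads carried protein A. Whether that antibody also recovered the tagged receptor was not tested. All cells were untreated and stood for 24 h in serum-free medium before fixation, after growth with 12% fetal bovine serum. There was 1 library per group, so no value below has a replicate check, and TRβ differed from TRα in cell line as well as in receptor. The libraries held 16033622 to 19786966 unique tags. These were 97.7% of all tags for TRα and 96.3% for RXR, but 83.4% for TRβ. The smallest peak held 10 tags in the TRα and RXR lists and 6 in the TRβ list.

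TRα and TRβ are nuclear receptors that sit on DNA with or without hormone. Without hormone they recruit corepressors, and thyroid hormone exchanges these for coactivators. The receptors bind mostly as heterodimers with RXR at direct repeats of a short half-site, but homodimers and monomers are also known to bind DNA. A TRα site without a called RXR peak is therefore of interest, although a peak list cannot tell an absent partner from one below the calling limit. All positions are on mm9. No genome sequence or annotation of that build was used here, so genes, exons and motifs at these sites were not analysed here.

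Partnerless peaks were the weak end of the TRα list. The median peak held 16 tags over 491 bp, against 29 tags over 634 bp for TRα peaks with a partner. Its median fold enrichment was 6.81 against 8.99. The fold is the authors' ratio. The headers do not define it, and it was taken here to set a peak's tags against nearby background in its own library. The median MACS score, minus 10 times log10 of the p-value, was 45.3 (interval of the median 45.0 to 45.6) against 76.4 (74.6 to 78.1). Ranked within the autosomal list, the median partnerless peak stood at percentile 29.8 and the median peak with a partner at 72.7, a difference of -42.9 points (-45.0 to -40.6). The 265 peaks with TRβ alone came nearest to the partnerless ones, with a median of 21 tags, a fold of 7.52 and a score of 54.0. Peaks with RXR alone had a median of 26 tags and a score of 67.4, and peaks with both partners 39 tags and 107.8. Intervals here and below cover counting error only, and peaks of 1 library are not replicates.

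Most partnerless peaks lay close to the limit at which peaks were called, a score of 40. A score below 50 was found for 2379 of the 3392 (70.1%, 68.6 to 71.7), against 17.5% (16.2 to 18.8) of the TRα peaks with a partner and 43.3% of all autosomal TRα peaks. At the other end, 28 partnerless peaks (0.825%, 0.549 to 1.19) reached a score of 100, against 31.4% of peaks with a partner and 16.4% of all. These 28 were spread over 14 chromosomes. They held 26 to 134 tags with a median of 34, below the median of 48.5 for the 1102 peaks with a partner above the same limit. Those peaks also had higher scores, with a median of 139.6 against 109.0, so the tag counts are not matched for score.

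The share without a partner fell along the whole score range. It was 86.0% (83.1 to 88.5) in the lowest decile, 63.6% in the fifth, 32.3% in the seventh and 0.434% (0.0896 to 1.26) in the highest, where 3 of 691 peaks lacked a partner. Sorted by fold, the share stayed between 69.9% and 77.7% through the 4 lowest deciles before it fell to 2.46% in the highest. Sorted by width, it fell from 71.1% among the narrowest peaks to 22.0% (18.96 to 25.3) among the widest, with 77.4% in the decile next to the narrowest. A wide peak has more bases with which to meet another, so width bears on the rule itself. With every peak replaced by a 500 bp window around its summit, which widens narrower peaks, 49.4% of TRα peaks were partnerless. Among them were still 3387 of the 3392.

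**Figure D1:**
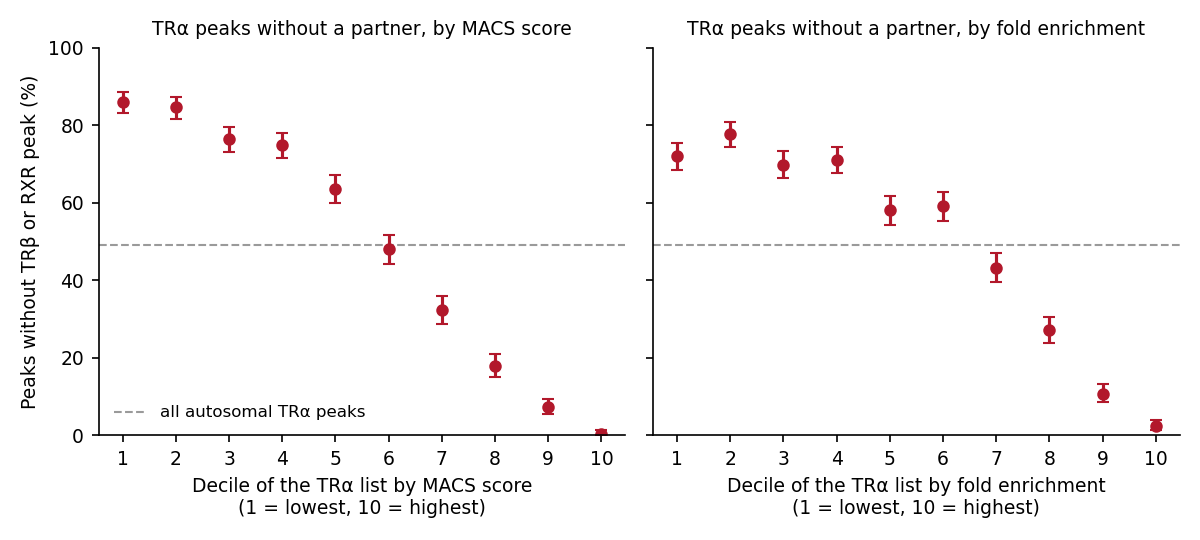
Share of autosomal TRα peaks without a TRβ or RXR peak (y axis, percent, with 95% exact binomial intervals) in each decile of the TRα list, sorted by MACS score (left) and by fold enrichment (right), with the share of 49.1% among all of them as a dashed line. By score the share falls from 86.0% to 0.434%, and by fold it stays near its highest level through the 4 lowest deciles.

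Within score groups, partnerless peaks still held fewer tags over a narrower stretch. The autosomal list was cut into 5 groups of equal size by score. In the lowest group partnerless peaks had a median of 13 tags and 452 bp, against 17 tags and 530 bp with a partner. In the middle group the values were 18 tags and 533 bp against 21.5 tags and 578 bp. In the highest group, with 53 partnerless peaks, they were 34 tags and 622 bp against 45 tags and 701.5 bp. Tags per kb were also lower in each of the 5 groups, at 29.95 against 32.6 in the lowest and 54.4 against 64.1 in the highest. Fold hardly differed in the lowest group (6.31 against 6.29) and was lower without a partner in the other 4, reaching 10.1 against 11.7 in the highest. Scores still varied within a group, from 89.91 to 1738 in the highest, so strength was matched only in part. Width also bears on the rule itself, so the narrower stretch cannot be read apart from it.

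**Figure D2:**
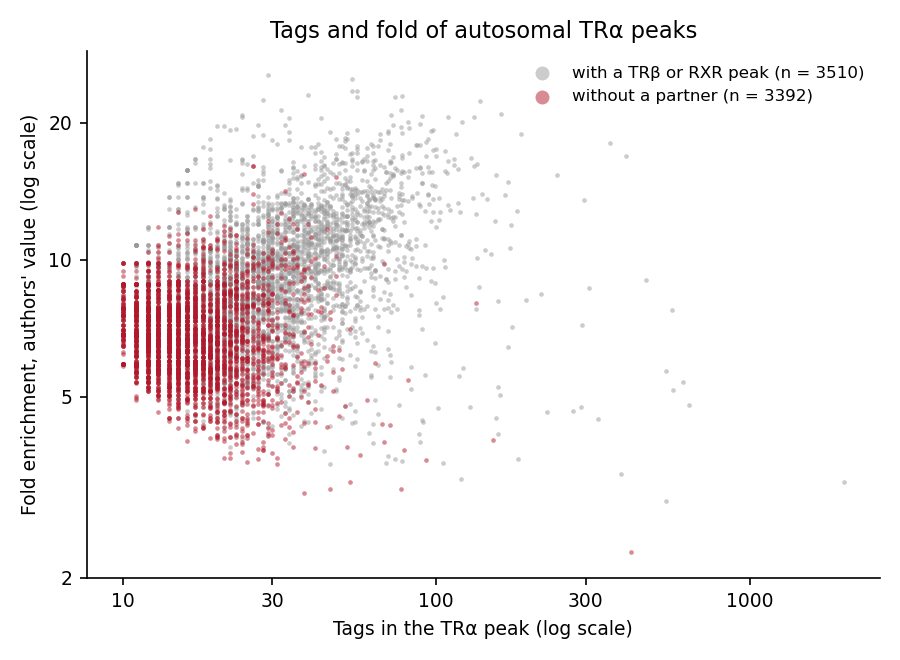
Tags (x axis, log scale) and fold enrichment (y axis, log scale) of each autosomal TRα peak, with 3392 partnerless peaks in red drawn over 3510 peaks with a TRβ or RXR peak in grey. Partnerless peaks crowd at few tags and low fold, around medians of 16 tags and 6.81, and a few lie far to the right at a fold below 5.

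The share with a called partner rose with the number of TRα tags. Of the 927 TRα peaks with 10 to 12 tags, 88.5% (86.2 to 90.4) had none, and 77 had an RXR peak. Those RXR partners held a median of 16 tags, and 40.3% of them had a score below 50. With 21 to 30 TRα tags, 38.3% of 1785 peaks were partnerless and the RXR partners of the rest held a median of 27 tags. With 61 tags or more, 12 of 366 peaks were partnerless (3.28%, 1.71 to 5.66), and RXR partners held a median of 72 tags, with 2.63% below a score of 50. TRβ partners had no such steady order. At 10 to 12 TRα tags the 51 TRβ partners had a median score of 73.0, with 21.6% below 50. At 13 to 15 TRα tags the 65 had a median score of 72.1, with 33.8% below 50. The 361 at 21 to 30 TRα tags had a median score of 57.8, with 31.9% below 50. At 61 TRα tags or more the 285 had 93.8 and 10.9%. RXR partners of the weakest TRα peaks were thus more often near the calling limit than those of strong ones. For TRβ partners the share below 50 was 33.8% at 13 to 15 TRα tags and 10.9% at 61 or more, but 21.6% in the lowest range. Their median score fell from 73.0 in the lowest range to 57.8 at 21 to 30 TRα tags. It then rose to 93.8 at 61 or more. The lists give no tags outside peaks, so how many RXR or TRβ tags lay at the partnerless sites is unknown here.

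The RXR list contained partnerless peaks to a similar extent and the TRβ list more. By the same rule 50.5% (49.3 to 51.6) of 6953 autosomal RXR peaks and 80.6% (79.8 to 81.4) of 9460 autosomal TRβ peaks met neither other list. Median scores of the partnerless peaks were 45.3 for TRα, 45.4 for RXR and 43.9 for TRβ. Where the score reached 100, the partnerless share was 2.48% (1.65 to 3.56) for TRα, 5.50% (4.07 to 7.25) for RXR and 14.2% (11.2 to 17.6) for TRβ. The lists differ in depth, in the part of tags that was unique (lowest for TRβ, 83.4%) and in peak width. Median widths were 559 bp for TRα, 701.5 bp for RXR and 168 bp for TRβ, so equal scores do not stand for equal signal.

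The 10 best-scoring partnerless peaks held 26 to 134 tags and ranked between 302 and 781 among the 6902 autosomal TRα peaks. The best, on chromosome 9 from 70111608 to 70111941, had 33 tags, a fold of 14.2 and a score of 174.8 within only 334 bp. Its nearest TRβ peak lay 379.0 kb away and its nearest RXR peak 570.4 kb. It held 98.8 tags per kb, where the median of the partnerless peaks was 32.0 and their highest value 105.3. Next came chromosome 12 from 56664442 to 56665216, with 48 tags and a fold of 15.2. A TRβ peak of 11 tags lay 24.8 kb from it and an RXR peak of 21 tags 24.5 kb.

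Ranked behind them was a peak of another kind, on chromosome 3 from 142218272 to 142220184. It was 1913 bp wide and held 134 tags, with a fold of 8.04. Only 1.52 kb away lay a TRα peak of 88 tags that met both other lists, and the TRβ peak there, with 266 tags, ended 1.58 kb from the partnerless one. It was the only one of the 10 with a TRβ or RXR peak within 10 kb. Of the remaining 7, chromosome 1 from 89539472 to 89540231 held 45 tags and chromosome 19 from 55729268 to 55729882 held 41. Chromosome 11 from 109208668 to 109209313 and chromosome 5 from 119754688 to 119755359 held 39 each. Chromosome 4 from 140983145 to 140983778 held 32, chromosome 3 from 104473909 to 104474356 held 28 and chromosome 1 from 173258927 to 173259404 held 26. The last of these shared the highest fold of all partnerless peaks, 16.1, with a peak of 26 tags on chromosome 13 from 5665853 to 5666344. Also among the 5 of highest fold was chromosome 17 from 46979946 to 46980633, with 38 tags and a fold of 15.4. An RXR peak of 87 tags lay 9.78 kb from it, and a TRα peak of 50 tags that met both lists lay 9.91 kb away.

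Peaks with the most tags were mostly wide and of low fold. The first was chromosome 2 from 77785236 to 77790004, where 419 tags over 4769 bp gave a fold of 2.28, the lowest of all partnerless peaks, and a score of 41.7. Chromosome 4 from 146892710 to 146895215 held 152 tags at a fold of 4.02, and chromosome 10 from 65293534 to 65296008 held 93 tags at a fold of 3.63. On chromosome 16, from 43466630 to 43467398, 81 tags lay 1.15 kb from an RXR peak of 178 tags and 1.34 kb from a TRα peak of 173 tags that met both lists. A width of at least 1000 bp was found for 49 partnerless peaks (1.44%, 1.07 to 1.91), against 6.32% of peaks with a partner and 3.93% of all. The 49 had a median fold of 5 and a median score of 50.4, against 7.92 and 104.3 for the 222 wide peaks with a partner. A fold below 5 was found for 241 partnerless peaks (7.10%, 6.26 to 8.02), against 2.93% with a partner and 4.98% of all. The calling used no control library, and whether such wide peaks gather tags whatever is captured was not tested.

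Few partnerless peaks missed a partner narrowly. A TRβ or RXR peak lay within 500 bp of 28 of them, within 1 kb of 54 (1.59%) and within 10 kb of 543 (16.01%, 14.8 to 17.3). The median distance to the nearest partner list peak was 45.2 kb, with 80.9 kb to TRβ and 96.4 kb to RXR taken alone. The closest call was chromosome 11 from 87912169 to 87912723, a peak of 21 tags with a TRβ peak of 9 tags 27 bp from its edge. It was followed by chromosome 14 from 22131783 to 22132500 (28 tags, TRβ at 81 bp) and chromosome 8 from 95370326 to 95370978 (21 tags, TRβ at 86 bp). Just on the other side of the rule, chromosome 13 from 52059764 to 52060870 (34 tags) shared 13 bp with an RXR peak. Chromosome 16 from 33178687 to 33179188 (19 tags) shared 18 bp with an RXR peak, and chromosome 16 from 47716238 to 47716651 (11 tags) shared 47 bp with a TRβ peak. Counting a peak within 1 kb as a partner left 3338 of the 3392.

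Partnerless peaks lay farther from other TRα peaks. The nearest other TRα peak was a median of 100.8 kb away, against 56.9 kb for peaks with a partner. Another TRα peak lay within 10 kb of 298 partnerless peaks (8.79%, 7.85 to 9.79), against 15.6% (14.4 to 16.8) of peaks with a partner and 12.2% of all. The difference was -6.77 percentage points (-8.30 to -5.24). It was -8.90 points in the lowest score group and -6.32 in the middle one. It was -0.60 points (-4.67 to 4.004) in the group below the top, and in the top group it turned to 4.11 points (-4.89 to 17.0), with 53 partnerless peaks. The nearest TRα neighbour within 10 kb was itself partnerless for 45.3% of the 298 and for 29.5% of the 546 peaks with a partner. Both shares lay below the 49.1% partnerless among all autosomal TRα peaks. Along the chromosomes, the TRα peak after a partnerless one was partnerless in 53.1% of cases (51.4 to 54.8), and the peak after one with a partner in 45.4% (43.8 to 47.1).

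**Figure D3:**
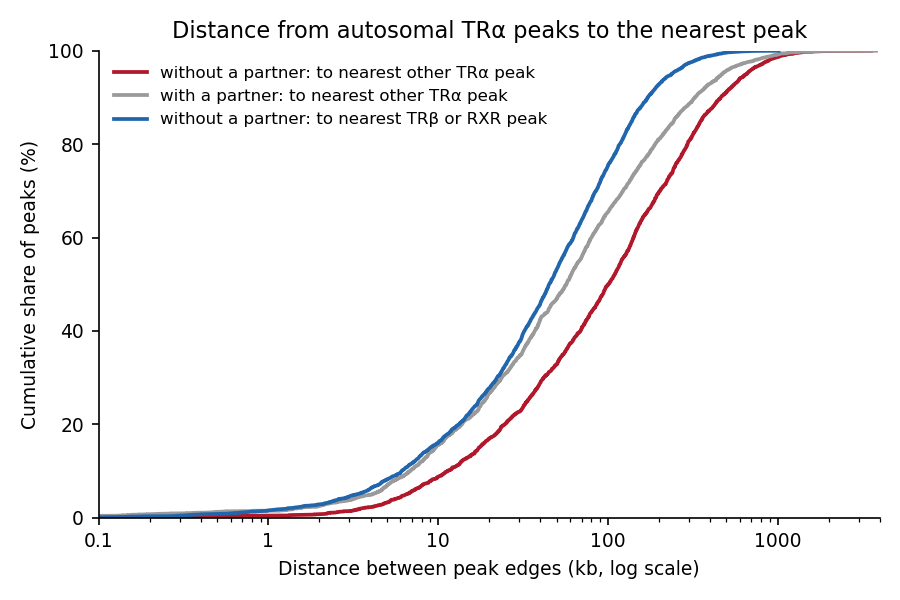
Cumulative share of autosomal TRα peaks (y axis, percent) by the distance between peak edges (x axis, kb, log scale) to the nearest other TRα peak, for peaks without a partner in red and with a partner in grey, and from partnerless peaks to the nearest TRβ or RXR peak in blue. At 10 kb the red curve stands at 8.79%, the grey at 15.6% and the blue at 16.01%.

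Partnerless peaks were found on all 19 autosomes, at 41.4 to 57.8% of the TRα peaks of a chromosome. The share was highest on chromosome 10 (57.8%, 53.1 to 62.3) and chromosome 1 (56.1%, 51.8 to 60.2), the only 2 whose interval lay wholly above the autosomal 49.1%. It lay wholly below for 5, which were chromosomes 2, 7, 9, 11 and 14, the last with the lowest share (41.4%, 35.1 to 47.9). Chromosome 10 also had the highest median tag count of partnerless peaks, 19 against 16 on all autosomes, and the largest part with a fold below 5, 16.4% against 7.10%. Chromosomes 15 and 16 followed in the latter with 14.7% and 13.6%. That order rests on the stretch from 64 to 67 Mb: without it 12.4% of the partnerless peaks on chromosome 10 had a fold below 5, fewer than on 15 and 16, while 57.0% (52.2 to 61.7) of its TRα peaks were partnerless. Chromosome 14 had a median of 13 tags and 0.990% with a fold below 5. Over the 19 chromosomes, which share 1 library, the partnerless share had a Spearman correlation of 0.612 with the percentage of low folds and of -0.572 with the median fold of partnerless peaks. With the median fold of TRα peaks that had a partner it was -0.550, so the relation was not limited to partnerless peaks. With the median tags it was 0.514 for partnerless peaks and 0.409 for peaks with a partner. The part of regional background in the share was not tested.

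**Figure D4:**
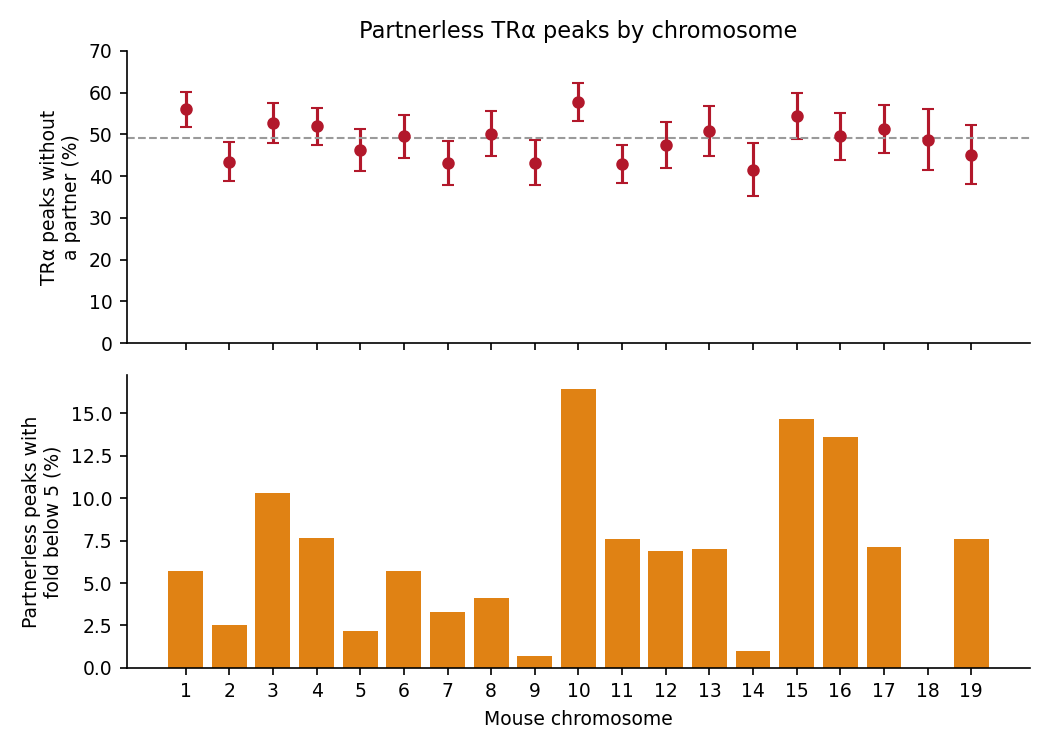
Share of TRα peaks without a partner on each autosome (upper panel, percent, with 95% exact binomial intervals and the autosomal 49.1% as a dashed line) and share of those partnerless peaks with a fold below 5 (lower panel, percent). Chromosome 10 is highest in both, at 57.8% and 16.4%, the latter falling to 12.4% without its stretch from 64 to 67 Mb.

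A single megabase of chromosome 10 stood out, from 64 to 65 Mb, which held 9 partnerless peaks, the most of any 1 Mb bin, and no TRα peak with a partner. The TRβ list had 3 peaks there and the RXR list 1. These 9 peaks held 19 to 79 tags with a median of 53, and were 394 to 2081 bp wide with a median of 1223 bp. Their folds were low, from 3.24 to 6.32 with a median of 4.05, and their scores ran from 40.9 to 82.4. The next in number, chromosome 11 from 117 to 118 Mb, had 8 partnerless peaks with a median of 20 tags and a fold of 5.85, beside 6 TRα peaks with a partner.

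The pattern went on to about 67 Mb, a limit chosen after the values were seen. Between 64 and 67 Mb there were 19 partnerless peaks with a median of 39 tags and 1191 bp, 13 of them with a fold below 5. In the 4 Mb on either side, 18 partnerless peaks had a median of 18.5 tags and 547.5 bp, and 2 had a fold below 5. TRα peaks with a partner also held more tags there, with a median of 76 for 8 peaks inside and 27 for 14 peaks outside. Low folds did not go with this: 0 of those 8 and 2 of those 14 had a fold below 5. RXR, from the same line, had 19 peaks inside with a median of 35 tags and 1149 bp, against 29 peaks with 26 tags and 795 bp outside. A fold below 5 was found for 2 of the 19 and 5 of the 29. TRβ peaks, from C17.2b, held a median of 8 tags inside (13 peaks) and 9 outside (42 peaks). The stretch was thus richer in tags per peak in both C17.2a libraries, whose peaks there were also wider, and tags per kb were not compared. The TRβ library, whose line differs as well, did not show this. Its median of 8 tags lay near the smallest count in that list, 6. Line and receptor cannot be told apart here. Without the stretch, 49.1% of the remaining autosomal TRα peaks, 3373 in number, were partnerless.

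**Figure D5:**
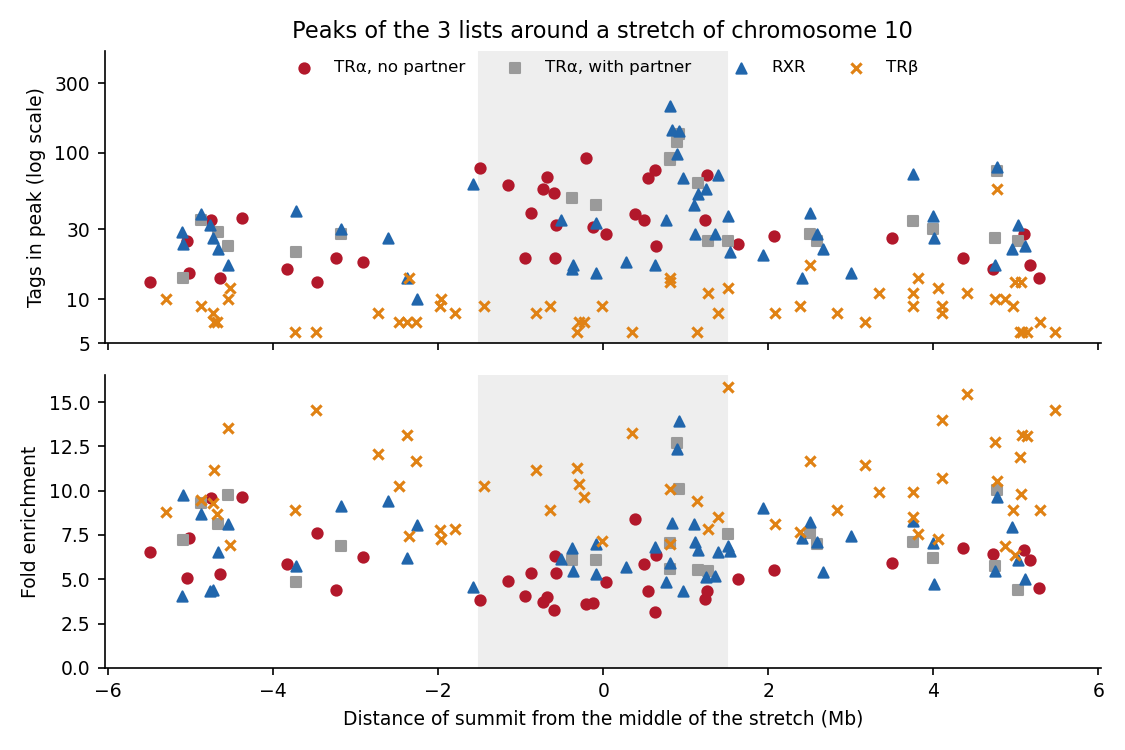
Tags per peak (upper panel, log scale) and fold enrichment (lower panel) of TRα peaks without and with a partner, RXR peaks and TRβ peaks, by distance of the summit from the middle of the stretch (x axis, Mb), with the stretch of 3 Mb shaded. Inside it partnerless TRα peaks reach 93 tags with folds down to 3.13, whereas TRβ peaks hold 6 to 14 tags inside.

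Single megabases rarely gathered partnerless peaks otherwise. They fell in 1711 of the 2058 autosomal 1 Mb bins that held any TRα peak, and 754 bins held exactly 1. Only 7 bins held 7 or more. In 591 of the 2058 bins all TRα peaks were partnerless. How many such bins the overall partnerless share of 49.1% would give by itself was not tested. Across the 2058 bins, which share 1 library, the numbers of partnerless and other TRα peaks had a Spearman correlation of 0.08. Leaving out bins without any TRα peak lowers this value by construction, so it cannot show that the groups lie independently. In all, the partnerless peaks covered 1.77 Mb, 43.3% of the bases under autosomal TRα peaks. They held 60736 tags, which is 31.7% of the tags in those peaks and 0.307% of the unique tags of the library. Their summits were central, with 96.5% in the middle part of the peak, from 0.25 to 0.75 of its width, as against 96.3% for peaks with a partner.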

How the data were processed

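Peak lists of 3 libraries were used, 1 each for TRα, TRβ and RXR. Per the submitters' processing notes, CASAVA 1.7, Bowtie 0.12.7 and mm9 were used. Per the file headers, MACS called peaks on each library alone without a control, with p-values limited to 0.0001, tags taken as 36 bp, a band width of 500 bp (300 bp for RXR) and a modelled shift of 139, 56 and 174 bp for TRα, TRβ and RXR. No source used here names the MACS version. The tag count of each peak was deposited by the authors without normalization. The score, minus 10 times log10 of p, and the fold are the authors' own values. The fold is a ratio that the headers do not define, taken here to set a peak's tags against nearby background in its own library. Both were used only to describe and sort peaks within a list.

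RXR starts were raised by 1 bp, as lengths in that list showed starts counted from 0. A partner shares at least 1 bp. Distances run between peak edges. Shares carry 95% exact (Clopper-Pearson) intervals, medians binomial intervals, and differences of shares Newcombe's interval. The difference of median percentiles carries the range between opposite ends of the 2 median intervals, which is not a 95% interval. No test between groups was possible with 1 library each. Python 3.11.15, numpy 2.4.6, pandas 2.3.3, scipy 1.17.1 and matplotlib 3.10.9 were used. On simulated data with 6902 peaks, 100% of planted overlaps and distances were returned in 5 runs.

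The regions and the analyses were chosen with earlier results of these data known. Regions named are the 10 partnerless peaks of highest score, the 5 of highest fold and the 5 of most tags, the 3 on either side of the overlap rule and the 1 Mb bin with the most, with others marked as chosen later. Planned comparisons with start sites, gene lists and the direct-repeat motif were left out, since they need a genome and annotation of mm9, which were not used here.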

Additional observations from a re-analysis of the deposited data

Results flagged for a closer look

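Chromosomes X and Y lay outside the autosomal set. On chromosome X, 40 of 213 TRα peaks (18.8%, exact interval 13.8 to 24.7) had no TRβ or RXR peak, a signal outside the regions compared above. On chromosome Y it was 0 of 59, with an upper limit of 6.06% by the exact interval and 5.08% by 3 counts. The partnerless peaks on X had a median of 13 tags, a fold of 8.84 and a score of 50.4.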

How the results depend on the processing

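In all, 22 alternative values were computed for 4 results. Of these, 9 stayed within the interval or range of the first value, 12 left it and 1 turned direction. The partnerless share of 49.1% became 55.1% with a reciprocal overlap of at least 50%, 36.6% with scores of at least 50 in all lists, 25.9% with that limit on TRα alone and 47.8% on all chromosomes. The 10 kb share of partnerless peaks near a partner (16.01%) became 1.59% at 1 kb, 53.2% at 50 kb and 9.51% with scores of at least 50. The difference in TRα neighbours (-6.77 points) became -1.04 at 1 kb and -14.1 at 50 kb. In score groups, an alternative added after seeing the data, it was -8.90 and -3.78 points in the lower groups, -0.60 in the one below the top and 4.11 in the top group. The rank difference stayed between -42.9 and -42.4 points. Wider distances and fewer partners move these shares by construction. Otherwise the cause was not tested. Sites with under 10 tags were not called for TRα or RXR. Settings for start sites and the motif were not run. No paired analysis was possible because there was 1 library in each group.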

Other observations

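Series of consecutive partnerless TRα peaks were listed after they had been seen. The longest held 16 peaks on chromosome 12 from 58279732 to 67170257, with 11 to 21 tags. The next held 13 peaks on chromosome 1 from 148020193 to 153523229, with 12 to 31 tags, and 12 peaks on chromosome 17 from 57416160 to 62356172, with 11 to 20 tags. Among the series of 10, one on chromosome 10 from 62591095 to 64922526 had a median of 46 tags and a fold of 4.48, whereas another on chromosome 8 from 39611416 to 46147000 had a median of 11 tags and a fold of 7.48.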
